A study of Homo sapiens with 6 samples.

Results

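Kinesin and dynein motor genes were examined in 8505C cells, an established line of anaplastic thyroid cancer, after small interfering RNA (siRNA) against NUF2. Members were taken by symbol from the protein-coding genes of the deposited table: all KIF and KIFC genes, the cytoplasmic dynein chains whose symbols begin with DYNC or DYNL, and the dynein adaptors BICD1 and BICD2. The rule found 52 of 32985 genes, of which 37 were kinesins, 13 were dynein chains and 2 were BICD adaptors. A mean FPKM (sequenced fragments scaled to transcript length and library total) of at least 1 over the libraries was met by 42 members, which were tested among 11725 such genes. The intermediate chains of dynein-2, which appear under the older symbols WDR34 and WDR60, fall outside a rule based on these names.

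Kinesins and cytoplasmic dynein are motor proteins that walk along microtubules using ATP. Most kinesins move towards the plus ends and dynein moves towards the minus ends, where it needs the dynactin complex and an adaptor such as BICD2 to move cargo over long distances. In dividing cells a subset of kinesins builds the spindle, moves chromosomes and completes cytokinesis, and NUF2 is a subunit of the NDC80 complex through which kinetochores hold spindle microtubules.

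Cells transfected with control siRNA (siCtrl, genotype given as WT, 3 libraries) were compared with cells transfected with NUF2 siRNA (siNUF2, genotype given as NUF2 knockdown, 3 libraries), all from 8505C cells and all labelled 24 h. A single NUF2 siRNA duplex is described for the study, and the library labels do not name the duplex used. Poly(A) RNA was sequenced, and the totals over genes ran from 61257859 to 69755291 counts per library, of which the motor genes took 0.361% to 0.378%. NUF2 itself was 14.8, 14.5 and 12.2 FPKM in siCtrl and 1.53, 2.05 and 1.56 in siNUF2, 12.4% of the control mean (log2 fold change -2.99, SE 0.17, adjusted p = 0.00051 by edgeR). The thyroid follicular genes TG, SLC5A5 and FOXE1 were at or near 0 in every library and PAX8 averaged 0.551 FPKM, while NKX2-1 averaged 18.3, VIM 479 and KRT18 162 FPKM. Of 5 epithelial markers 3 reached a mean of 1 FPKM, and the others were low, EPCAM at 0.133 and CDH1 at 0.00615 FPKM. At a mean of at least 1 FPKM were 1 of 3 leukocyte markers (CD68, 5.51), 1 of 2 endothelial markers (CDH5, 1.16) and 1 of 4 fibroblast markers (COL3A1, 1.01). Their summed FPKM ran from 3.48 to 7.40, 0.923 to 2.11 and 0.465 to 3.76 in siCtrl and from 4.74 to 6.29, 0.686 to 3.10 and 0.907 to 5.33 in siNUF2, so the groups overlapped for each list, and PTPRC, which defines leukocytes, averaged 0.116 FPKM. The labels do not say that replicates came from separate cultures, so the p-values measure the spread between these libraries, which may be technical. In bulk RNA, fewer cells in a phase or state and less RNA per cell cannot be told apart.

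Among the 42 motor genes tested, 5 changed (11.9%), against 3.99% of all genes tested. The test was the quasi-likelihood test of edgeR, and genes were called at an adjusted p under 0.05 (Benjamini-Hochberg, over all 11725 genes). BICD2, DYNLL2 and KIF1C rose, and DYNC1LI2 and KIF5B fell, beside 1.53% of all genes that rose and 2.46% that fell. At an unadjusted p under 0.05 there were 13 members, 7 higher and 6 lower, against 18.2% of all genes tested. BICD2 and DYNC1LI2 moved by more than 1 on the log2 scale, and the other 3 by about 0.5. Across the members tested the median log2 fold change was -0.03, beside 0.01 over all genes tested, with 19 values above 0 and 23 below. The libraries of the groups did not overlap, on normalised counts, for 20 of the 42 members (47.6%), 10 in each direction, against 24.1% of all genes tested (12.1% higher and 12% lower). Libraries that carry the same replicate number in both groups deviated together across genes, and with this number as a block in the model 10 motor genes changed (23.8%), against 14.5% of all genes. Of these 5 were higher and 5 lower, beside 6.64% and 7.91% of all genes. The block added KIF3B and KIF18A among the higher genes and KIF13A, KIF5C and KIFC2 among the lower ones. DESeq2 without the block gave 9 of these 10, all but KIFC2, against 8.29% of all genes (5 higher against 3.48%, 4 lower against 4.81%). The study's own rule, a ratio of FPKM means above 2 or below 0.5 with an F-test p under 0.05, was met by 3 of the 52 members, BICD2, DYNC1LI2 and the barely detected KIF26A, and by 2.13% of all 32985 genes.

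**Figure D1:**
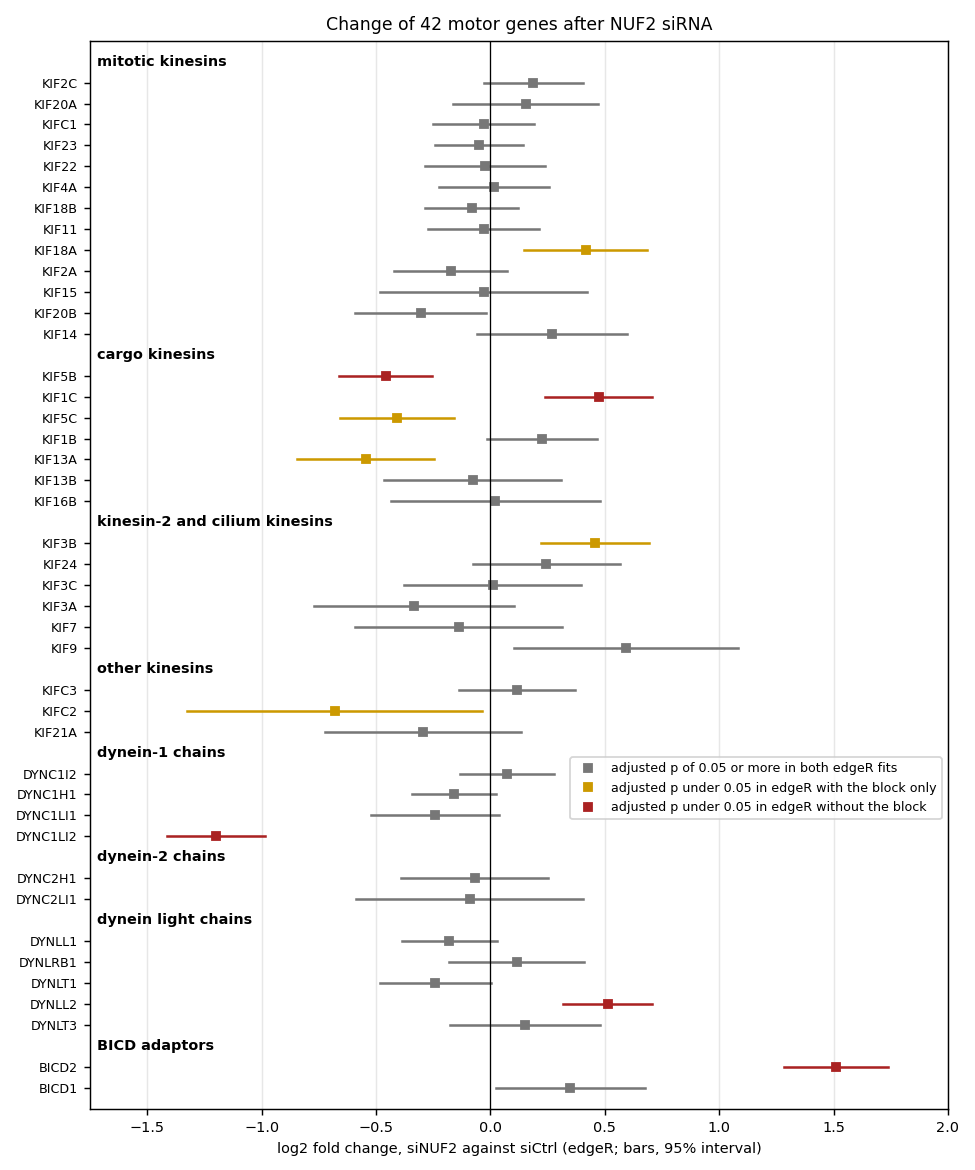
Log2 fold change of each of the 42 motor genes tested, siNUF2 against siCtrl (horizontal axis, edgeR fit, bars 95% intervals), grouped by role. BICD2 at 1.51 and DYNC1LI2 at -1.20 lie apart from the other members, and the 13 mitotic kinesins lie between -0.30 and 0.42.

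Of the dynein-1 chains, DYNC1LI2 fell. It encodes a light intermediate chain, the subunit by which the dynein motor binds its adaptors. DYNC1LI2 (ENSG00000135720, chr16:66720893-66751609, minus strand, GRCh38) was 15.7, 15.7 and 16.5 FPKM in siCtrl and 6.91, 6.35 and 7.34 in siNUF2. All siNUF2 libraries lay far below all siCtrl libraries, at 42.9% of the control mean. The log2 fold change was -1.20 (SE 0.09, adjusted p = 0.0012 by edgeR), the values within replicate numbers 1, 2 and 3 were -1.18, -1.27 and -1.15, and leaving out any single library gave -1.25 to -1.15 with the call kept. An overlapping lncRNA on the opposite strand, AC018557, averaged 0.0323 FPKM, so it held little signal of its own.

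The other dynein-1 chains did not pass the test. DYNC1H1, the heavy chain that carries the motor, was 12.6, 12.2 and 12.7 FPKM in siCtrl and 11.3, 10.6 and 11.2 in siNUF2 (log2 fold change -0.16, adjusted p = 0.354 by edgeR). DYNC1LI1, the paralogue of DYNC1LI2, was 13.05, 12.01 and 12.80 FPKM against 11.7, 8.72 and 11.2 (log2 fold change -0.24, adjusted p = 0.351 by edgeR). For both genes the siNUF2 libraries were lower without overlap, but the differences were much smaller than that of DYNC1LI2. DYNC1I2, an intermediate chain that holds the light chains, overlapped between groups, with means of 11.58 and 12.01 FPKM (log2 fold change 0.07, adjusted p = 0.744 by edgeR). The neuronal intermediate chain DYNC1I1 was listed at a mean of 0.0415 FPKM and was not tested.

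The balance between the light intermediate chains therefore differed within each library. DYNC1LI2 FPKM divided by DYNC1LI1 FPKM was 1.21, 1.31 and 1.29 in siCtrl, so DYNC1LI2 was the more abundant transcript per length in all control libraries. In siNUF2 the ratio was 0.589, 0.728 and 0.657, and DYNC1LI1 was the more abundant in all. An exact two-sided permutation test gave p = 0.1, the smallest that 3 against 3 libraries allow, and 0.15 after Benjamini-Hochberg adjustment over 9 ratios of related motor genes, which were chosen after the single-gene values were known. DYNC1LI2 relative to the heavy chain gave 1.28 ± 0.03 in siCtrl and 0.621 ± 0.027 in siNUF2 (SD, n = 3, exact permutation p = 0.1). DYNC1LI1 relative to the heavy chain was 1.01 ± 0.02 and 0.951 ± 0.11 (SD, n = 3), a difference within the spread (exact permutation p = 0.7). DYNC1I2 relative to the heavy chain was 0.926 ± 0.044 and 1.087 ± 0.048 (SD, n = 3), higher without overlap (exact permutation p = 0.1, adjusted p = 0.15).

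The dynein-2 chains, which move cargo back from the tips of cilia, were low, and neither passed the test with edgeR, at an unadjusted p under 0.05 or with DESeq2. The shares of all genes tested that did were 3.99%, 18.2% and 8.29%, in that order. DYNC2H1, the heavy chain, was 2.64 ± 0.36 FPKM in siCtrl and 2.48 ± 0.28 in siNUF2 (SD, n = 3). DYNC2LI1, its light intermediate chain, was 1.48 ± 0.14 and 1.37 ± 0.28 FPKM (SD, n = 3). The log2 fold changes were -0.07 and -0.09, and their sign turned without siCtrl replicate 2 for DYNC2H1 (0.04) and without siNUF2 replicate 3 for DYNC2LI1 (0.07). The 95% interval of the difference for DYNC2LI1, -0.59 to 0.40 on the log2 scale, leaves room for moderate changes.

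Both BICD adaptors had higher values in siNUF2, but 1 of them passed the test. BICD2 links dynein and dynactin to vesicles and, before mitosis, to nuclear pores. BICD2 (ENSG00000185963, chr9:92711363-92764833, minus strand) was 4.01, 4.38 and 4.54 FPKM in siCtrl and 12.3, 11.4 and 12.7 in siNUF2. The groups were separated by a gap wider than the spread within either, and the siNUF2 mean was 2.81 times the control mean. BICD2 rose by a log2 fold change of 1.51 (SE 0.10, adjusted p = 0.000844 by edgeR), with 1.628, 1.411 and 1.501 within replicate numbers 1, 2 and 3 and 1.46 to 1.55 when any single library was left out, the call kept each time. No other gene in the table overlaps BICD2. BICD1 was 1.11, 1.10 and 1.06 FPKM in siCtrl and 1.43, 1.18 and 1.51 in siNUF2, without overlap but with an adjusted p of 0.248 by edgeR (log2 fold change 0.35). BICD2 relative to BICD1 was 3.96 ± 0.33 in siCtrl and 8.91 ± 0.66 in siNUF2 (SD, n = 3, exact permutation p = 0.1, adjusted p = 0.15).

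The dynein light chains included the most abundant member, DYNLL1, at a mean of 58.4 FPKM. DYNLL1 and DYNLL2 encode the LC8 light chain, a dimer shared with many complexes outside dynein. DYNLL2 (ENSG00000264364, chr17:58083419-58095542, plus strand) was 19.6, 18.5 and 19.6 FPKM in siCtrl and 28.3, 26.3 and 26.4 in siNUF2, so all siNUF2 libraries were higher. DYNLL2 rose by a log2 fold change of 0.51 (SE 0.08, adjusted p = 0.0176 by edgeR). The adjusted p was 0.0699, 0.0651 and 0.0716 without siCtrl replicate 1, 2 or 3, and 0.0808, 0.0449 and 0.0520 without siNUF2 replicate 1, 2 or 3, so the call held in 1 of these 6 fits while the log2 fold change stayed between 0.48 and 0.53.

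DYNLL1 had the opposite sign, at 64.8, 58.3 and 64.1 FPKM in siCtrl and 53.4, 52.6 and 56.9 in siNUF2, without overlap (log2 fold change -0.18, adjusted p = 0.351 by edgeR). Reads of DYNLL1 may be shared with its processed pseudogenes, which makes its level uncertain. DYNLL2 relative to DYNLL1 was 0.302, 0.317 and 0.306 in siCtrl and 0.5303, 0.5003 and 0.4644 in siNUF2 (exact permutation p = 0.1, adjusted p = 0.15). Per length, DYNLL1 was the more abundant LC8 transcript in every library, by a smaller margin in siNUF2.

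The remaining light chains gave no call. DYNLT1, of the Tctex family, averaged 29.4 ± 0.96 FPKM in siCtrl and 24.5 ± 2.42 in siNUF2 (SD, n = 3, log2 fold change -0.24, adjusted p = 0.277 by edgeR) without overlap. DYNLT3, of the same family, averaged 8.16 and 8.95 FPKM and overlapped. DYNLRB1, a roadblock light chain, averaged 48.8 ± 3.41 and 52.0 ± 7.30 FPKM (SD, n = 3) and overlaps ITCH on the same strand, whose own mean was 7.78 FPKM in siCtrl and 4.67 in siNUF2. Its paralogue DYNLRB2 was listed at 0.00893 FPKM and was not tested. Summed over the 5 tested and 1 untested light chains, FPKM was 168 ± 5.42 in siCtrl and 167 ± 8.93 in siNUF2 (SD, n = 3), whereas the dynein-1 chains summed to 52.7 ± 0.80 and 40.5 ± 3.21.

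**Figure D2:**
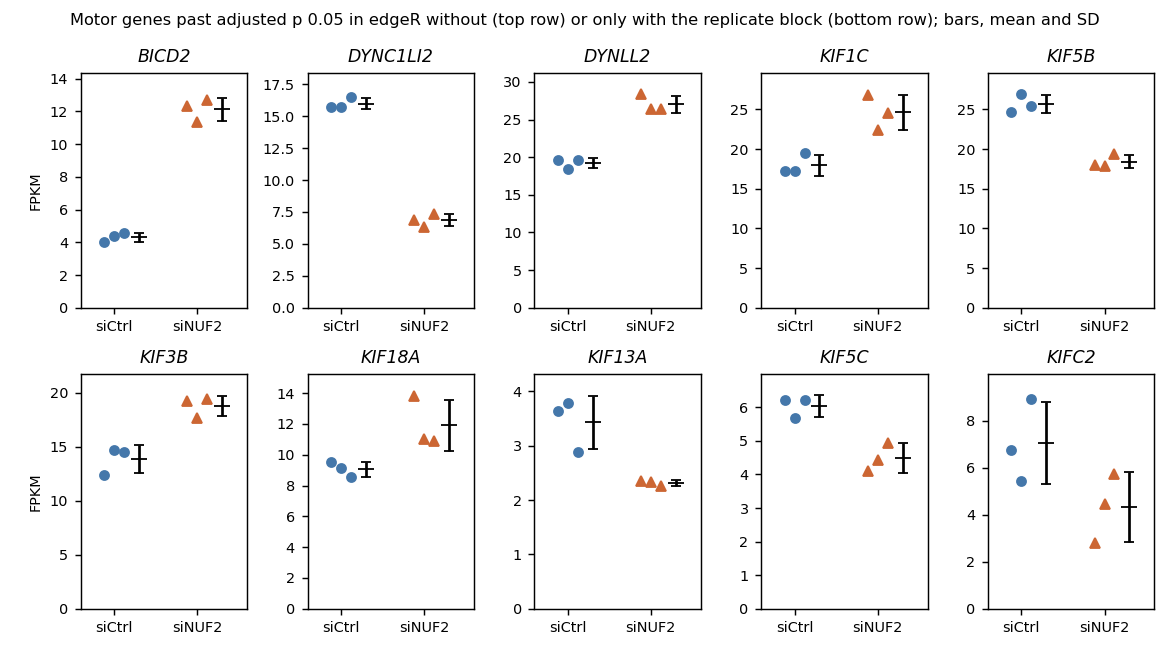
FPKM (vertical axis, from 0) in each of the 3 siCtrl (circles) and 3 siNUF2 libraries (triangles), with mean and SD beside them, for the 5 motor genes past an adjusted p of 0.05 in edgeR without the block (top row) and the 5 past it in edgeR with the replicate number as a block only (bottom row), of which DESeq2 called 4 without a block. KIFC2 is the member shown whose groups overlap.

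Among the kinesins of cargo transport, KIF1C rose and KIF5B fell. KIF5B is the widely expressed heavy chain of kinesin-1, which carries mitochondria, vesicles and other cargo. KIF5B (ENSG00000170759, chr10:32009015-32056425, minus strand) was 24.7, 26.9 and 25.5 FPKM in siCtrl and 18.0, 17.9 and 19.4 in siNUF2, every siNUF2 library lower. KIF5B fell by 0.46 on the log2 scale (SE 0.09, adjusted p = 0.0309 by edgeR), to 71.8% of the control mean. The call did not hold in any fit that left out a library, with adjusted p of 0.0867, 0.0931 and 0.108 without siCtrl replicate 1, 2 or 3 and 0.127, 0.0828 and 0.0659 without siNUF2 replicate 1, 2 or 3, while the log2 fold change stayed between -0.50 and -0.42.

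KIF5C, the kinesin-1 heavy chain best known from neurons, was 6.22, 5.68 and 6.22 FPKM in siCtrl and 4.09, 4.43 and 4.95 in siNUF2. The groups did not overlap, the log2 fold change was -0.41 (SE 0.11), and the adjusted p was 0.0893 by edgeR and 0.0219 with the block. KIF5B relative to KIF5C was 4.26 ± 0.41 in siCtrl and 4.12 ± 0.25 in siNUF2 (SD, n = 3), a difference within the spread (exact permutation p = 0.6). KIF5A, the third kinesin-1 heavy chain, was listed at 0.121 FPKM and was not tested.

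KIF1C, a kinesin-3 that carries vesicles and mRNA (ENSG00000129250, chr17:4997950-5028401, plus strand), was 17.2, 17.3 and 19.5 FPKM in siCtrl and 26.9, 22.4 and 24.6 in siNUF2. The lowest siNUF2 library was above the highest siCtrl library. KIF1C rose by a log2 fold change of 0.47 (SE 0.10, adjusted p = 0.0451 by edgeR), close to the threshold. The adjusted p was 0.162, 0.134 and 0.0806 without siCtrl replicate 1, 2 or 3 and 0.162, 0.0581 and 0.112 without siNUF2 replicate 1, 2 or 3, so the call held in none of these fits, while the log2 fold change stayed between 0.41 and 0.54. Its antisense lncRNA KIF1C-AS1 averaged 0.216 FPKM.

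KIF13A, a kinesin-3 of endosomes, was 3.63, 3.78 and 2.88 FPKM in siCtrl and 2.36, 2.33 and 2.26 in siNUF2. The groups did not overlap, with a log2 fold change of -0.55 (SE 0.13) and an adjusted p of 0.0642 by edgeR and 0.0162 with the block. KIF1B, which carries mitochondria and synaptic vesicle precursors, was higher without overlap at 3.21 ± 0.28 and 3.70 ± 0.20 FPKM (SD, n = 3) and had an adjusted p of 0.312 by edgeR. KIF13B and KIF16B overlapped between groups, with log2 fold changes of -0.08 and 0.02. The 8 cargo kinesins summed to 59.6 ± 1.54 FPKM in siCtrl and 56.8 ± 2.01 in siNUF2 (SD, n = 3), since higher and lower members were both present.

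None of the 6 tested kinesin-2 and cilium kinesins passed edgeR's test (2 had an unadjusted p under 0.05, and DESeq2 called 1). Over all genes tested, these shares were 3.99%, 18.2% and 8.29%, in that order. The member nearest to the threshold was KIF3B, which pairs with KIF3A in kinesin-2, the motor that carries cargo towards the tips of cilia. KIF3B was 12.3, 14.7 and 14.5 FPKM in siCtrl and 19.2, 17.7 and 19.4 in siNUF2, with no overlap. Its log2 fold change was 0.46 (SE 0.10), its adjusted p was 0.0502 by edgeR and 0.0131 with the block, and the values within replicate numbers 1, 2 and 3 were 0.65, 0.30 and 0.44. The partner KIF3A had the opposite sign, at 2.71, 2.05 and 2.52 FPKM against 2.24, 1.49 and 1.96, and its groups overlapped (log2 fold change -0.33, adjusted p = 0.415 by edgeR). KIF3B relative to KIF3A was 5.84 ± 1.31 in siCtrl and 10.1 ± 1.62 in siNUF2 (SD, n = 3, exact permutation p = 0.1, adjusted p = 0.15). KIF3C, another kinesin-2 subunit, averaged 2.20 FPKM in siCtrl and 2.19 in siNUF2.

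KIF9, a kinesin of motile cilia, was the tested member closest to the limit of expression, at a mean of 1.22 FPKM, and the first below it was KIF27 at 0.442. KIF9 was 1.16, 0.776 and 1.00 FPKM in siCtrl and 1.38, 1.64 and 1.35 in siNUF2. These values did not overlap, and the log2 fold change of 0.59 (SE 0.21) had an adjusted p of 0.194 by edgeR and 0.0899 with the block. KIF9 overlaps KLHL18 on the opposite strand, at 4.62 FPKM, and whether the counting used strand is not stated. KIF24, which restrains the growth of cilia, and KIF7, a regulator of Hedgehog signalling in cilia, had log2 fold changes of 0.24 and -0.14 with adjusted p of 0.418 and 0.779 by edgeR. KIF17 at 0.203 FPKM and KIF6 at 0.0339 were, with KIF27, not tested.

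The mitotic kinesins, whose spindle is the structure that NUF2 attaches to, did not pass the test: 0 of 13 tested members changed by edgeR, 2 had an unadjusted p under 0.05, and DESeq2 called 1, beside 3.99%, 18.2% and 8.29% of all genes tested. With so few members, these counts are near the shares of all genes. Their median log2 fold change was -0.03, beside 0.01 over all genes tested, and all 95% intervals lay within -0.59 and 0.68. Together the 14 mitotic kinesins summed to 209 ± 4.77 FPKM in siCtrl and 212 ± 13.7 in siNUF2 (SD, n = 3), between 36.8% and 41.1% of the FPKM of all motor genes in every library.

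KIF2C, a kinesin-13 that removes tubulin from microtubule ends at centromeres, had the highest mean of them, at 31.0 FPKM. It was 29.8, 28.9 and 28.9 FPKM in siCtrl and 35.4, 33.2 and 29.8 in siNUF2 (log2 fold change 0.19, adjusted p = 0.351 by edgeR). KIF11, which pushes spindle poles apart, was 12.8, 13.8 and 12.4 against 11.27, 13.40 and 13.04 FPKM (log2 fold change -0.03, 95% interval -0.27 to 0.21). Among the kinesins of cytokinesis, KIF20A was 28.9, 31.4 and 26.0 FPKM in siCtrl and 36.6, 32.1 and 26.0 in siNUF2, and KIF23 was 24.2, 24.3 and 25.5 against 23.4, 22.8 and 24.4. The groups overlapped for KIF11, KIF20A and KIF23.

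KIF18A, a kinesin-8 that damps the movements of chromosomes at the metaphase plate, had the largest difference of this group. KIF18A was 9.49, 9.13 and 8.53 FPKM in siCtrl and 13.8, 11.0 and 10.9 in siNUF2, without overlap. The log2 fold change was 0.42 (SE 0.12), and the adjusted p was 0.105 by edgeR and 0.0172 with the block. KIF20B, a kinesin of the midbody, had the lowest log2 fold change of the group, with FPKM of 5.39, 5.68 and 4.79 FPKM in siCtrl against 4.74, 4.05 and 3.88 in siNUF2 (-0.30 on the log2 scale, adjusted p = 0.250 by edgeR, no overlap). The log2 fold changes of the others were 0.27 for KIF14, 0.02 for KIF4A, -0.02 for KIF22, -0.03 for KIF15, -0.03 for KIFC1, -0.08 for KIF18B and -0.17 for KIF2A. KIF4B, a near-identical copy of KIF4A whose reads cannot be told apart with certainty, was listed at 0.0551 FPKM and was not tested.

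**Figure D3:**
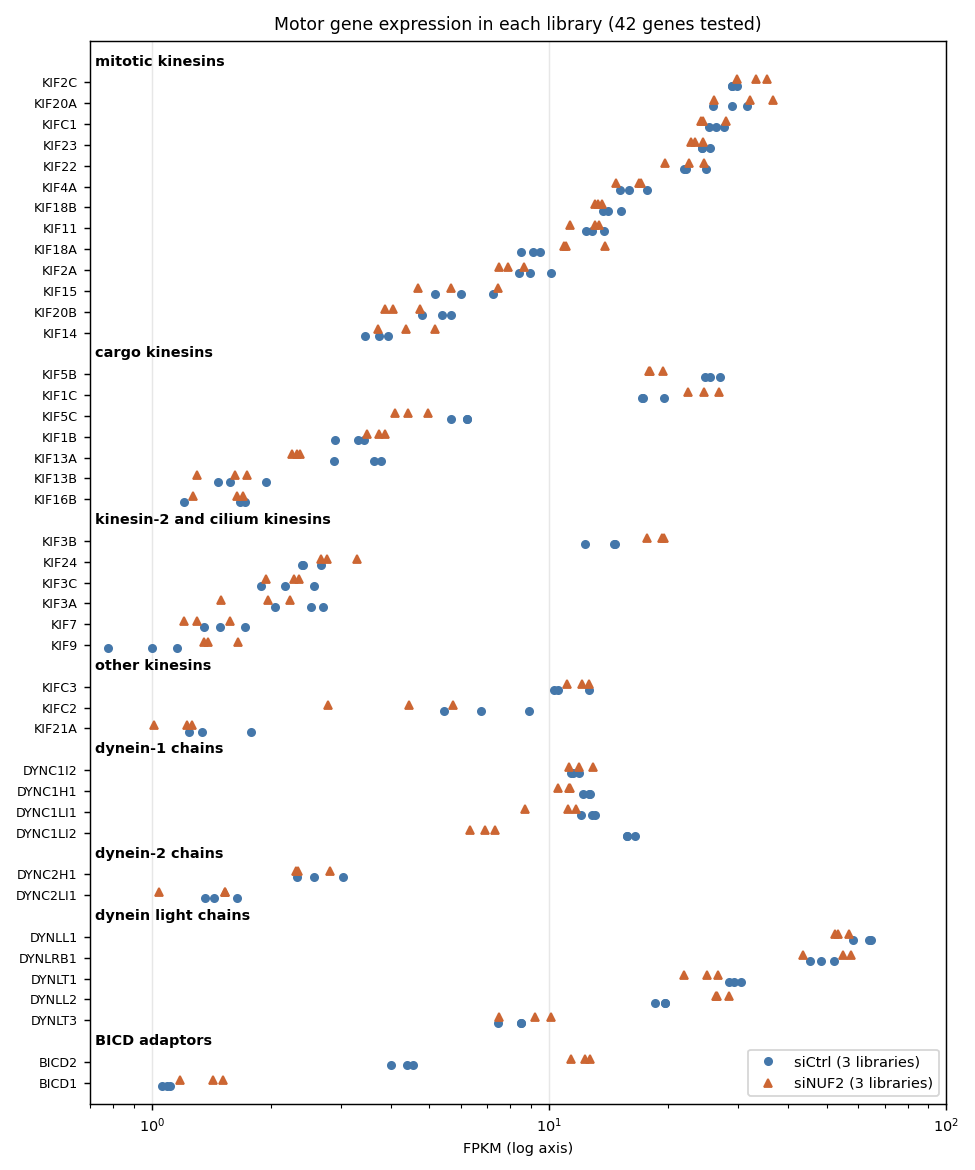
FPKM of the 42 tested motor genes in each library (horizontal axis, log scale), with 3 siCtrl libraries as circles and 3 siNUF2 libraries as triangles, grouped by role. The members run from a mean of 1.22 FPKM for KIF9 to 58.4 for DYNLL1, and the circles and triangles of most mitotic kinesins interleave.

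Most mitotic kinesins shared elements in their promoters, a feature that the choice of members did not use. RefSeq promoters (GRCh38.p14, 250 bases before to 50 after the start) were matched for 38 of the 42 tested members. The cell cycle genes homology region (CHR) is an element of genes expressed in G2 and M phase, searched here as TTTGAA or TTTAAA on both strands, and CCAAT is the box bound by the factor NF-Y. A CHR form was present in 11 of 13 mitotic kinesin promoters (84.6%), against 14.9% of the 8411 promoters of protein-coding genes tested. CCAAT was present in 10 of 13 (76.9%), against 37.4%, and both in 9 of 13, against 6.17%. A match describes letters and is not a measured binding site. KIF22 held CCAAT alone and KIF2A held neither. Among the other tested motor genes with a promoter, CHR forms were found in 2 of 6 cargo kinesins, 1 of 2 dynein-2 chains and no promoter of the kinesin-2 and cilium, dynein-1, light chain, BICD or other kinesin groups.

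The 100 bases before the start are printed for 4 mitotic kinesins in which both elements lie there, with CHR forms and CCAAT boxes in capitals (TTCAAA and ATTGG are the matches on the other strand). They are shown 5′ to 3′ on the strand of the gene, from chr10:92593030-92593129 (plus) for KIF11, chrX:70290004-70290103 (plus) for KIF4A, chr11:28108157-28108256 (minus) for KIF18A and chr5:138179012-138179111 (plus) for KIF20A.
KIF11: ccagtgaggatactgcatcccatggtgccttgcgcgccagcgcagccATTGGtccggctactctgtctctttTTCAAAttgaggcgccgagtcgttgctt
KIF4A: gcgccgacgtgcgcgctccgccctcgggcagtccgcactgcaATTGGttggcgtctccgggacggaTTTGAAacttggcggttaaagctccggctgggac
KIF18A: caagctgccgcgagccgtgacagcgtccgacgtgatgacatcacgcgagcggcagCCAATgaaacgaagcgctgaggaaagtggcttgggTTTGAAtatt
KIF20A: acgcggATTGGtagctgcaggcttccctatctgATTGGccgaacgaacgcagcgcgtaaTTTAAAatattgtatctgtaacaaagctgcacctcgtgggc

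In all 4 the CHR form lies nearer to the start than the CCAAT box. For the other mitotic kinesins with a CHR form, a window of 26 bases around the match nearest the start shows the form in capitals. They come from chr1:200620735-200620760 (minus) for KIF14, chr3:44761749-44761774 (plus) for KIF15, chr17:44947756-44947781 (minus) for KIF18B, chr10:89701604-89701629 (plus) for KIF20B, chr15:69414284-69414309 (plus) for KIF23, chr1:44739824-44739849 (plus) for KIF2C and chr6:33391817-33391842 (plus) for KIFC1.
KIF14: ggggcgcccaTTCAAAttgcggcctt
KIF15: aagcgccaaaTTCAAAtttgcggcca
KIF18B: gcccggctaaTTTGAAcgcaaggcgc
KIF20B: gccgccattgTTTGAAtttgaaaacg
KIF23: gattggcccgTTTGAAatgcgccagg
KIF2C: gcgcgcgggaTTTAAActgcggcggt
KIFC1: gccgttggaaTTCAAAagtggcgggt

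In 10 of the 11 promoters a CHR form began between 50 bases before and 30 bases after the start. In KIF23 the nearest form began 55 bases before it. The share of all promoters with a match in this window was not counted, so the positions have no background. KIF18A, the mitotic kinesin that edgeR called with the block and DESeq2 without it, is among the 9 whose promoters held both elements. The part of these elements in its change was not tested.

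**Figure D4:**
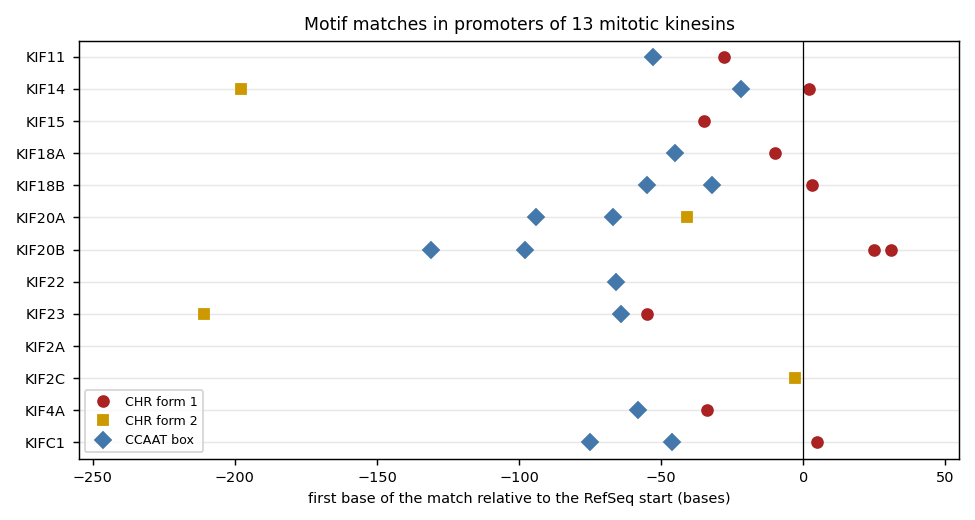
First base of each CHR form (circles, TTTGAA; squares, TTTAAA) and CCAAT box (diamonds) in the promoters of the 13 tested mitotic kinesins, by distance in bases from the RefSeq start (horizontal axis, both strands). CHR forms begin between 50 bases before and 30 after the start in 10 promoters, and CCAAT boxes lie before the start, at most 131 bases from it.

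Of 22 mitotic marker genes that are not motors, 0 changed by edgeR, 5 had an unadjusted p under 0.05 and DESeq2 called 2, beside 3.99%, 18.2% and 8.29% of all genes. With the block 4 changed (18.2%, against 14.5% of all genes), named here after their values were seen: BIRC5 (log2 fold change 0.50), BUB1B (0.30) and CENPF (0.30) higher, and CDC25C (-0.49) lower. The median over the 22 genes was 0.05, so the mitotic kinesins and these markers both centred near 0.

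The remaining kinesins gave no call by edgeR, 1 at an unadjusted p under 0.05 and 0 by DESeq2, among 3 tested. These shares were 3.99%, 18.2% and 8.29% of all genes tested. KIFC2, a minus-end-directed kinesin, was 6.74, 5.45 and 8.92 FPKM in siCtrl and 2.78, 4.44 and 5.75 in siNUF2, and the groups overlapped. Within replicate numbers 1, 2 and 3 it was lower by log2 values of -1.27, -0.26 and -0.62, and the adjusted p was 0.253 by edgeR and 0.0426 with the block. KIFC3, also minus-end-directed, and KIF21A, which restrains microtubule growth, had log2 fold changes of 0.12 and -0.29 with adjusted p of 0.660 and 0.475 by edgeR. KIF21B at 0.361 FPKM, KIF26B at 0.0122 and KIF26A at 0.00714 were not tested. KIF26A was listed at 0 in all siCtrl libraries and at 0.0152, 0.00717 and 0.0205 FPKM in siNUF2, from 8, 4 and 10 counts.

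**Figure D5:**
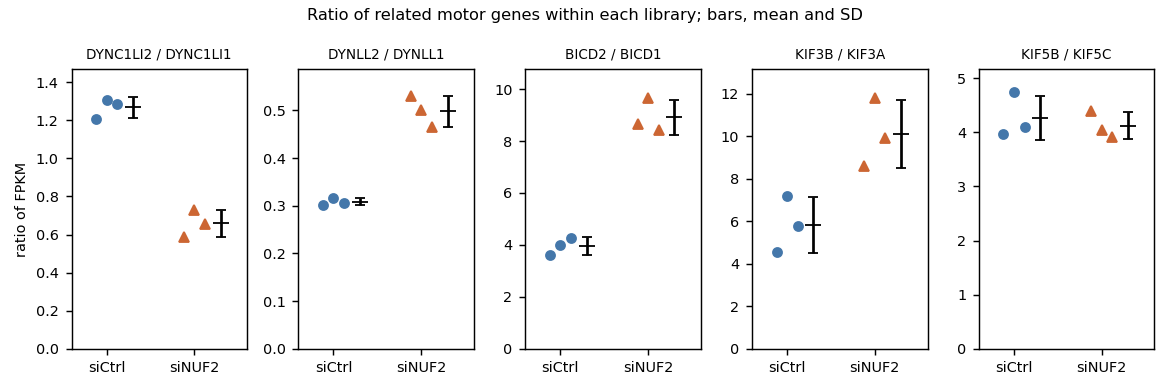
Ratio of FPKM between related motor genes in each library (vertical axes, from 0; circles siCtrl, triangles siNUF2, bars mean and SD, 3 libraries each). DYNC1LI2 / DYNC1LI1 falls from 1.27 to 0.658 and BICD2 / BICD1 goes from 3.96 to 8.91, while KIF5B / KIF5C overlaps between groups.

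The partner proteins of the motors were followed in a list of 37 genes of dynactin, dynein regulators, other dynein adaptors, kinesin light chains and associated proteins. Of the 30 tested, 0 changed by edgeR, 8 had an unadjusted p under 0.05, and DESeq2 called 3, beside 3.99%, 18.2% and 8.29% of all genes. The median log2 fold change was 0.04. With the block 4 changed (13.3%, against 14.5% of all genes), named after their values were seen: CAPZA1 of the dynactin filament cap (-0.41) and the kinetochore dynein adaptor SPDL1 (-0.35) were lower, and DCTN6 of dynactin (0.36) and the dynein regulator NUDC (0.24) were higher. KIFAP3, the kinesin-2 associated protein that binds KIF3A and KIF3B, was 4.20 ± 0.63 FPKM in siCtrl and 2.89 ± 0.17 in siNUF2 (SD, n = 3) with a log2 fold change of -0.52 and an adjusted p of 0.118 by edgeR. Its groups did not overlap, and its adjusted p was 0.0558 by edgeR with the block and 0.0356 by DESeq2. KIFAP3 is named because it completes the complex of KIF3B. CENPE, a kinetochore kinesin whose symbol lies outside the rule, had 0.18 and an adjusted p of 0.603 by edgeR.

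The 3′ UTRs of the motor genes were searched for TATGGAA, complementary to bases 2 to 8 of the guide (antisense) strand in the NUF2 duplex, and for ATGGAA, which lies within it and so is counted wherever TATGGAA is. The longest annotated 3′ UTR of each gene was used, on the gene strand (GENCODE 44). TATGGAA was present in 10 of the 42 tested motor genes (23.8%), against 16.1% of 10174 genes tested with a 3′ UTR, and ATGGAA in 22 (52.4%), against 46.2%. The median 3′ UTR was longer in the motor genes, at 1636.5 bases against 1503.5 over all genes tested. DYNC1LI2, KIF13A, KIF20B, KIF21A, KIF2A, DYNC1H1, KIF15, DYNLT3, KIF1B and BICD1 held TATGGAA. Of these 10 genes 7 had a log2 fold change below 0, with a median of -0.17, and of the 32 without it 16 did, with a median of -0.01. Of the 22 genes with ATGGAA 13 had a log2 fold change below 0, with a median of -0.08. Of the 20 without it 10 did, with a median of -0.004. Neither split was made over all genes tested, so these few values have no background. Among called genes without TATGGAA, KIF5B, which fell, held 2 copies of ATGGAA. BICD2 and DYNLL2, which rose, held 2 and 3 copies of ATGGAA. KIF1C and KIF5C held neither motif. The part of these sites in the changes was not tested.

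The site is printed for the dynein chain that fell and for the kinesin with the next lowest value among genes holding it, with TATGGAA in capitals. DYNC1LI2 holds it at chr16:66722504-66722532 (minus strand, GRCh38, 3′ UTR, exon 13 of 13) and KIF13A at chr6:17759597-17759625 (minus strand, 3′ UTR, exon 38 of 38).
DYNC1LI2: attttttttctTATGGAAataagagtttc
KIF13A: aggattatgtgTATGGAAatttttacaaa

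Among the genes with the site, DYNC1LI2 was the only one that edgeR called without the block, and KIF13A was called by edgeR with the block and by DESeq2 without it. BICD1, KIF1B and DYNLT3, with 1 copy each, had log2 fold changes above 0.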

How the data were processed

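The deposited table held 2 values per gene and library for 6 libraries of 8505C cells: counts and FPKM. The authors made them with fastp, HISAT2 (GRCh38) and StringTie. Versions, annotation release, counting tool and strand setting are not given in the sources used here. The counts were deposited without normalization, and the deposited FPKM are scaled by the authors to transcript length and library total. Columns headed KD were assigned to siNUF2 by the genotype label and number.

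Where mean FPKM reached 1, genes were fitted in edgeR 4.0.16 (R 4.3.3) with TMM factors and the quasi-likelihood test, without covariates, and p-values were adjusted over all genes tested. The SE is the size of the log2 fold change divided by the square root of F. Alternatives were a replicate block, DESeq2 1.42.0, limma 3.58.1 on log2(FPKM + 1) or log2(FPKM + 0.1), other filters and factors, the study's own rule (FPKM ratio above 2 or below 0.5 with an F-test), and leaving out each library. Only the edgeR fits, without and with the block, were run on simulated counts with known changes. These counts held no replicate effect, so the block's use of the pairing was not tested. No library was a copy of another in its group (chi-square divided by degrees of freedom, 90.1 to 132 for the 6 pairs). Deviations from the group means correlated at 0.412 to 0.514 between libraries of the same number and at -0.292 to -0.131 otherwise. Deviations cancel within a group, so the negative values follow from the positive ones and add no evidence. By the values for the same number, the numbers pair the libraries. This comes from the data alone, since neither labels nor methods say what a number shares.

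Members, lists and ratios were chosen with earlier results of these data known. Named genes were NUF2, members past the threshold with or without the block, the highest and the most changed member per role, and those nearest to the FPKM limit. Other members are given for completeness. Promoters came from RefSeq and 3′ UTRs from GENCODE 44, in which 30 of 42 tested members had the same start and end as in the file.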

Additional observations from a re-analysis of the deposited data

How the results depend on the processing

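BICD2 and DYNC1LI2 were called in every fit listed here. The count of motor genes changed, 5 (3 higher, 2 lower), was 10 (5 and 5) with the replicate block, which uses the pairing of the libraries by number, 9 (5 and 4) with DESeq2, 3 (2 and 1) with no filter on FPKM, and 3 (2 and 1) by the study's own rule, where the third gene was KIF26A at 0 in siCtrl. With no filter all 52 members were tested, and 188 of 32985 genes were called. Leaving out a library gave 2 to 3 (1 to 2 higher, 1 lower), beside 124 to 251 of all 11725 genes. With all 6 libraries 468 genes were called. The count of motor genes was 5 with DESeq2 size factors, beside 455 of 11725 genes. At a mean FPKM of at least 5 it was 6 of 27 members, beside 345 of 6542 genes. With limma at either pseudocount it was 4, beside 383 of 11725 genes. The count of partner genes changed, 0, was 4 with the block, 3 with DESeq2, 2 at FPKM of at least 5, 1 with limma at either pseudocount, and 0 to 0 without a library. For mitotic markers these counts were 4, 2, 1, 1 and 0 to 0. The cause was not tested. The median of the mitotic kinesins, -0.03, ran from -0.035 to 0.060 without a library, above 0 at 0.01 without siCtrl replicate 2 and at 0.06 without siNUF2 replicate 3. Over the named genes, 184 values kept direction and side of the threshold, 21 lost the call and 10 gained it. The other 2 changed sign without being called: without a library DYNC2H1 ran from -0.172 to 0.0425 (above 0 without siCtrl replicate 2) and DYNC2LI1 from -0.183 to 0.0685 (above 0 without siNUF2 replicate 3). At 3 libraries a group, differences as small as those of most mitotic kinesins could not be separated from the spread.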
